A study of Homo sapiens with 16 samples.

Results

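RAG1, RAG2, DNTT, PTCRA and IGLL1 are genes that lymphocytes use to assemble and first test an antigen receptor. These 5 genes, taken by symbol from the 57820 of the count table, were followed in RNA-seq libraries of Jurkat and HSB-2, established cell lines of T-ALL (acute lymphoblastic leukemia of the T lineage). The choice was made with their levels in the Jurkat USP7 knock-down already known, so those levels are described here without a test. The study asked what partial loss of USP7, which encodes a deubiquitinating enzyme, does to transcription in T-ALL cells. In both lines there were 4 groups with 2 libraries apiece, namely untransduced wild-type cells, scrambled control cells, and cells carrying 1 of 2 lentiviral USP7 hairpins, shRNA-4057 or shRNA-4058, which are directed at different exons. Per the methods of the study, transduced cells were sorted for GFP or kept by puromycin selection. All 8 groups carry the label TAL1+. The sample labels call the scrambled control an siRNA, whereas the design text of the series calls it an shRNA. The labels do not tie a replicate to a transduction or a clone, so an n of 2 measures the spread between the libraries of these cultures, which may be technical.

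RAG1 and RAG2 together form the recombinase that cuts the DNA at V, D and J gene segments. DNTT, terminal deoxynucleotidyl transferase, adds nucleotides without a template at the joints before they are sealed. In an immature T cell the rearranged receptor β chain is tested by pairing with the invariant pre-T α chain, the product of PTCRA. IGLL1 encodes λ5, which pairs with the VPREB1 product to form the surrogate light chain of the pre-B-cell receptor. E proteins such as E2A and HEB bind the E-box CANNTG and are known activators of receptor assembly genes, and TAL1 is a partner that competes for them.

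The members lie on 4 chromosomes (GRCh37, coordinates from GENCODE release 44). RAG1 (chr11:36531922-36614706, plus strand) and RAG2 (chr11:36597124-36619829, minus strand) overlap on opposite strands and share 588 bases annotated as exon in both. RAG2 also shares 372 exonic bases with IFTAP on the opposite strand. DNTT lies at chr10:98064166-98098321 (plus strand), PTCRA at chr6:42883727-42893576 (plus strand) and IGLL1 at chr22:23915312-23922489 (minus strand). The library kit was stranded, but the strand setting of the counting was not given in the sources used here, so reads in the shared stretches could not be assigned with certainty. DNTT and IGLL1 each have an antisense long non-coding RNA, ENSG00000229418 and ENSG00000224277, which share 0 and 43 exonic bases with them.

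Because the 5 genes were low together in the Jurkat knock-down, the 250 bases upstream of each RefSeq start are shown, 5′ to 3′ on the gene's own strand, with every E-box (CANNTG, which reads the same on both strands) in capitals. They come from the RefSeq promoter table of build GRCh38.p14, and each was found at a single place in GRCh37: chr11:36531653-36531902 for RAG1, chr11:36619787-36620036 for RAG2, chr10:98063941-98064190 for DNTT, chr6:42883541-42883790 for PTCRA and chr22:23922478-23922727 for IGLL1.
RAG1: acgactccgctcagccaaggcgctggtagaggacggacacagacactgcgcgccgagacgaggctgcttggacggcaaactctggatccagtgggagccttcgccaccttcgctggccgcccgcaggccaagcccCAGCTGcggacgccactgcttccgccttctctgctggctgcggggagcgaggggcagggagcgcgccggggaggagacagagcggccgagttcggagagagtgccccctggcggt
RAG2: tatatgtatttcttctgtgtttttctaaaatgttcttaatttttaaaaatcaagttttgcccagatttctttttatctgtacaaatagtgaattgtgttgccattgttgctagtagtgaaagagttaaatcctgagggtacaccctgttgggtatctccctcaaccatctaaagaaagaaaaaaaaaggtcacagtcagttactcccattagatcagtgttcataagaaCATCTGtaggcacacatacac
DNTT: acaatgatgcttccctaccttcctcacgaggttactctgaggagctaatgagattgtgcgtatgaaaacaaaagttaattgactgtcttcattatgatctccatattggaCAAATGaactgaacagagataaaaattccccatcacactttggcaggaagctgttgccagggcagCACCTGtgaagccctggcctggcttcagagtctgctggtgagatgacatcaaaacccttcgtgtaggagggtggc
PTCRA: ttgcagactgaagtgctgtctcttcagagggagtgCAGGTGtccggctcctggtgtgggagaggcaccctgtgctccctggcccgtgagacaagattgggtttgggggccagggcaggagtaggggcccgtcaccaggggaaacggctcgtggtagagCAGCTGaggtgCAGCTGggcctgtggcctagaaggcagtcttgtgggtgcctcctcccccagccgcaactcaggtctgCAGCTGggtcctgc
IGLL1: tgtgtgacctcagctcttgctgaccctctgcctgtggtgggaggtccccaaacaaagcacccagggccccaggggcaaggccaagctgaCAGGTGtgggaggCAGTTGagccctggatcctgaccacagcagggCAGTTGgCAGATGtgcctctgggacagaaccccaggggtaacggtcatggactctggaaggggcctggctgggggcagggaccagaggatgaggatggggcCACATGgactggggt
The windows held 1 E-box in RAG1, 1 in RAG2, 2 in DNTT, 4 in PTCRA and 5 in IGLL1. Among the 35116 promoter windows of this length, 61.8% held at least 1, with a median of 1 and a maximum of 11. The CAGCTG form occurred once in RAG1 and 3 times in PTCRA, and in 14.0% of all windows. CAGGTG, read on either strand, occurred once each in DNTT, PTCRA and IGLL1, and in 17.5% of all windows. The GATA-type word AGATAA occurred once each in RAG2 and DNTT (9.2% of all windows). The RUNX-type word TGTGGT occurred 2 times in IGLL1, and in 3855 of the 35116 windows. GTGGGAA, a word bound by the NOTCH partner RBPJ, occurred in none of the 5, and in 5.4% of all windows. These are matches of letters in a fixed window and say nothing of binding. The RAG1 window lies before the outermost annotated start of a long locus. Starts further inside that locus, and other starts of the remaining genes, were not examined.

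Libraries held between 76.6 and 235 M (mega) counted reads, and those of Jurkat between 86.9 and 110 M. Levels are given as TMM-normalized CPM (counts relative to the scaled total of the library), and calls are adjusted p under 0.05 in edgeR's quasi-likelihood test over the 23063 genes that passed the filter on low counts, which all 5 members did. USP7 checked the labels. In Jurkat its mean was 391 CPM in wild-type, 385 in scrambled, 143 in shRNA-4057 and 243 in shRNA-4058 cells. In HSB-2 the means were 240, 224, 146 and 159 CPM. In Jurkat, all 7 measured T-lineage markers exceeded 1 CPM in every library (summed 1810 to 2673 CPM), 10 of 12 B-lineage markers stayed under it (summed 26.0 to 68.6 CPM; CD79A and EBF1 did not), and so did all 5 myeloid markers (summed 0.434 to 0.932 CPM). HSB-2 expressed 6 of the 7 T-lineage markers above 1 CPM in every library (summed 2613 to 4063 CPM), with CD2 as the exception, while the B-lineage markers summed to 1.59 to 5.28 CPM and the myeloid markers to 0.0642 to 0.326 CPM. The T-lineage markers were themselves called, 1 higher (CD5) and 6 lower with shRNA-4057 and 0 and 7 with shRNA-4058 in Jurkat, and 7 and 0 with either hairpin in HSB-2 (median log2 fold changes -0.41, -0.43, 0.60 and 0.87). Of all genes tested in Jurkat, 22.7% were called higher and 27.3% lower with shRNA-4057, and 19.7% and 26.7% with shRNA-4058. In HSB-2 the shares were 21.9% and 21.7%, and 26.6% and 26.2%. The medians over all genes were 0.00, -0.01, -0.02 and -0.01. Scrambled against wild-type, 5 markers were called higher and 0 lower in Jurkat, beside 14.8% of all genes higher and 2544 of the 23063 lower. In HSB-2 it was 0 and 7 markers, beside 16.1% and 17.9% of all genes. The part of these lineage markers in the results below was not tested.

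In Jurkat, each of the 5 genes was lower with either USP7 hairpin than with the scrambled control, and lower with shRNA-4057 than with shRNA-4058. USP7 itself stood 2.70-fold below its scrambled mean with shRNA-4057 and 1.59-fold below it with shRNA-4058, the same order of the hairpins. With 2 hairpins, a relation between the level of USP7 and that of the members was not tested. With shRNA-4057, the mean levels were 5.29% of scrambled for IGLL1, 13.7% for RAG1, 19.1% for DNTT, 23.2% for PTCRA and 47.9% for RAG2. With shRNA-4058 they were 12.9% for IGLL1, 48.2% for DNTT, 48.3% for RAG1, 72.0% for PTCRA and 89.7% for RAG2. In all 5 genes, both libraries of each hairpin lay below both scrambled and both wild-type libraries. The share of all genes separated in this way was not counted, and with 2 libraries per group the criterion is loose. Over all genes tested, 27.3% were called lower and 22.7% higher with shRNA-4057, and 26.7% lower and 19.7% higher with shRNA-4058. The members were chosen on these contrasts, so nothing is read from their number. In bulk RNA, fewer cells that express a gene and less RNA per cell cannot be told apart.

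**Figure D1:**
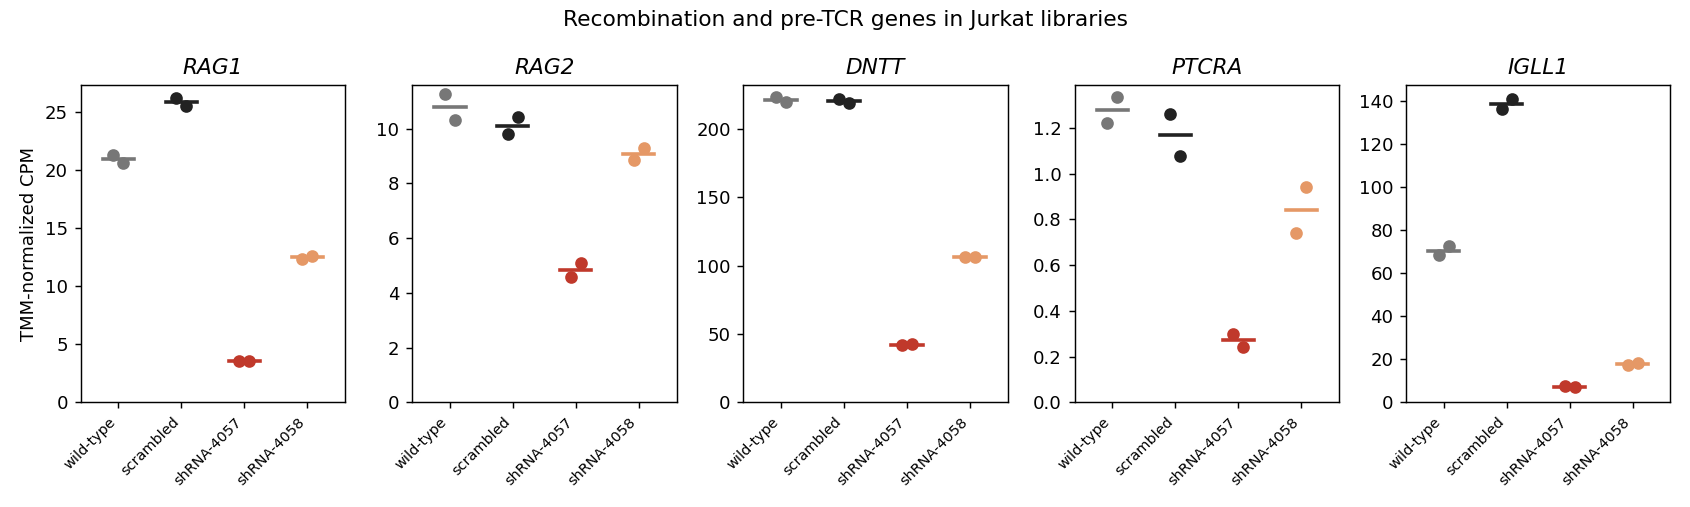
Levels of the 5 genes in the 8 Jurkat libraries, in TMM-normalized CPM on linear axes that start at 0 and differ between panels; each point is a library and each bar the mean of 2. In every panel the shRNA-4057 libraries are lowest and the shRNA-4058 libraries lie between them and both controls, and in IGLL1 the scrambled libraries stand above the wild-type ones.

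RAG1, the catalytic subunit of the recombinase, was at 21.3 and 20.7 CPM in the wild-type libraries and at 26.2 and 25.5 CPM in the scrambled libraries. It was at 12.4 and 12.6 CPM with shRNA-4058 and at 3.58 and 3.53 CPM with shRNA-4057. The groups did not overlap, and replicates lay within 1 CPM of each other. The log2 fold change against scrambled was -2.86 ± 0.105 (SE, n = 2) with shRNA-4057 and -1.05 ± 0.0925 with shRNA-4058. Set against wild-type cells instead, it was -2.56 and -0.75.

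RAG2, the second recombinase subunit, was at 11.3 and 10.3 CPM in wild-type cells and at 9.81 and 10.4 CPM in scrambled cells. It was at 8.86 and 9.28 CPM with shRNA-4058 and at 4.59 and 5.11 CPM with shRNA-4057. Of the 5 genes it was the least lowered by either hairpin, and its shRNA-4058 libraries lay close under the scrambled ones. The log2 fold change against scrambled was -1.06 ± 0.116 with shRNA-4057 and -0.16 ± 0.111 with shRNA-4058, and the latter was 0.13 when libraries were scaled by their totals alone. Without the second scrambled library it was -0.073. Against wild-type cells the values were -1.16 and -0.25.

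The recombinase subunits differed in how far they were lowered. There were 0.528 and 0.498 RAG2 reads per RAG1 read in the wild-type libraries and 0.374 and 0.408 in the scrambled libraries. The ratio was 0.716 and 0.734 with shRNA-4058 and 1.28 and 1.45 with shRNA-4057. The 4 groups were separate, and only with shRNA-4057 did RAG2 reads outnumber RAG1 reads. This ratio is taken within a library and does not depend on how libraries were scaled, but it is built from the contrasts that chose the genes and was not tested.

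**Figure D2:**
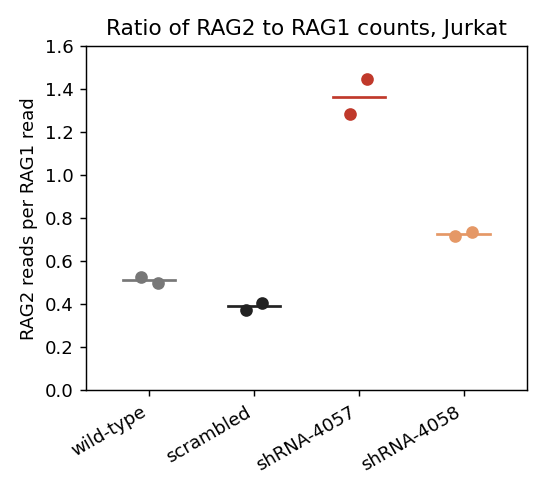
RAG2 reads per RAG1 read in each Jurkat library (linear axis from 0; points are libraries, bars the mean of 2). The ratio is lowest in scrambled cells (0.374 and 0.408) and exceeds 1 only with shRNA-4057 (1.28 and 1.45).

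The 3 genes beside the RAG pair were measured as well. TRAF6, which encodes a ubiquitin ligase of innate signalling, was at 30.4 CPM in scrambled cells, with a log2 fold change of -0.06 ± 0.0524 with shRNA-4057 (adjusted p = 0.379) and of -0.15 ± 0.0522 with shRNA-4058 (adjusted p = 0.0240, edgeR), both smaller than the shift that scaling by library totals gives, under which both values were higher than scrambled (0.21 and 0.14). The shRNA-4058 call was lost in 7 of the other 12 alternatives, each omission of a library among them. PRR5L, which encodes a protein of the mTORC2 complex, rose with shRNA-4057, by 1.56 ± 0.178 on the log2 scale (adjusted p = 8.9e-08, edgeR; not called with the hairpins pooled, 0.94), and had -0.24 ± 0.201 with shRNA-4058 (adjusted p = 0.358). IFTAP, which overlaps RAG2, was near the detection limit, with means between 0.0511 and 0.310 CPM across the Jurkat groups. It was called lower with shRNA-4057 (log2 fold change -2.19 ± 0.783, adjusted p = 0.0249), a call that was lost without the first scrambled library or either shRNA-4057 library and with the hairpins pooled (-1.72). With shRNA-4058 it had -1.43 and was not called, and was called without the second library of that hairpin (-2.87).

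DNTT was the highest of the 5 genes in wild-type cells, at 223 and 220 CPM, and the scrambled libraries were at 222 and 219 CPM. It was at 106 CPM in both shRNA-4058 libraries and at 41.7 and 42.7 CPM with shRNA-4057. The controls overlapped each other and neither hairpin came near them. The log2 fold change against scrambled was -2.39 ± 0.0649 with shRNA-4057 and -1.05 ± 0.0614 with shRNA-4058, and against wild-type cells -2.39 and -1.06. The antisense RNA ENSG00000229418, at 1.97 CPM in scrambled cells, was also called lower with both hairpins (log2 fold change -1.23 ± 0.242, adjusted p = 0.000207, and -0.60 ± 0.232, adjusted p = 0.0397). The latter call was lost with library totals (-0.32), in DESeq2 and on leaving out the first scrambled library (-0.38) or either shRNA-4058 library.

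PTCRA was the lowest, with 143 and 120 reads in the wild-type libraries and 116 and 102 in the scrambled libraries, which corresponded to 1.22, 1.33, 1.26 and 1.08 CPM. There were 94 and 111 reads with shRNA-4058 (0.741 and 0.941 CPM) and 34 and 25 reads with shRNA-4057 (0.299 and 0.243 CPM). The hairpin groups were separate from each other and from the controls, which overlapped. The log2 fold change against scrambled was -2.10 ± 0.325 with shRNA-4057 and -0.48 ± 0.289 with shRNA-4058, with larger errors than for the other genes. Under the other scalings, filters and omissions of a library the shRNA-4058 value ranged from -0.66 (without the second shRNA-4058 library) to -0.19 (library totals). Against wild-type cells the values were -2.23 and -0.60.

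IGLL1 was the most lowered of the 5 and the one whose controls lay furthest apart. It was at 68.4 and 72.8 CPM in wild-type cells and at 136 and 141 CPM in scrambled cells. It was at 17.6 and 18.2 CPM with shRNA-4058 and at 7.57 and 7.10 CPM with shRNA-4057. The log2 fold change against scrambled was -4.24 ± 0.0646 with shRNA-4057 and -2.95 ± 0.0586 with shRNA-4058, and against wild-type cells it was -3.27 and -1.98. The choice of control therefore moved the IGLL1 value by about 1 log2 unit, while both hairpins stayed below both controls. Its antisense RNA ENSG00000224277 was scarce (0.214 CPM in scrambled cells) and was called lower with both hairpins (log2 fold change -3.45 ± 0.877, adjusted p = 0.00203, and -2.68 ± 0.780, adjusted p = 0.00664). Against wild-type cells it was called with neither (-2.18 and -1.41), and the shRNA-4058 call was also lost without the second scrambled library (-2.35) or the second shRNA-4058 library (-1.94).

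**Figure D3:**
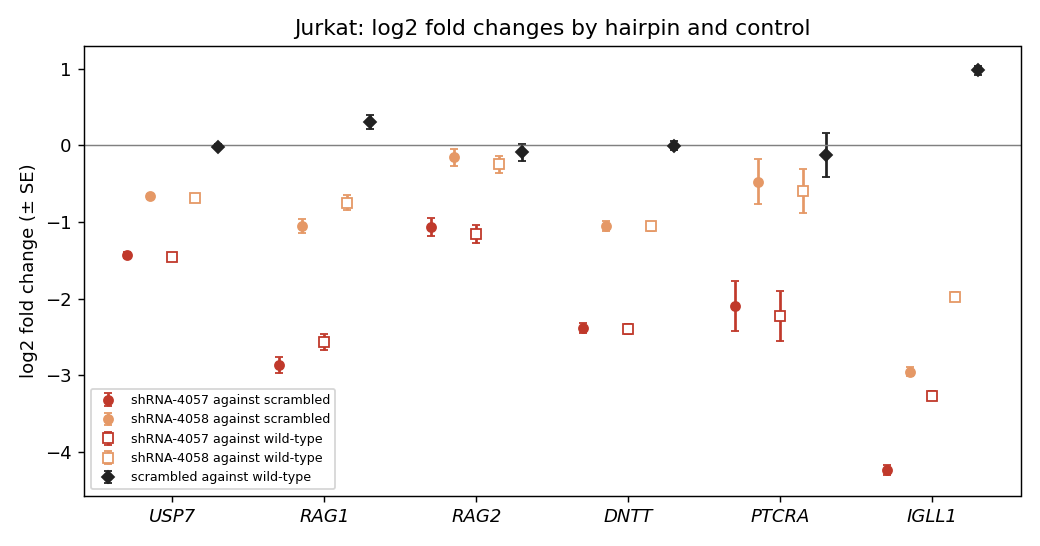
Log2 fold change with its SE in Jurkat for USP7 and the 5 genes: shRNA-4057 (dark) and shRNA-4058 (light) against scrambled (filled circles) and wild-type (open squares), and scrambled against wild-type (black diamonds). IGLL1 shows the lowest values (-4.24 and -2.95 against scrambled) and the highest diamond (0.97), and RAG2 with shRNA-4058 lies nearest 0.

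The scrambled and wild-type Jurkat cells were also compared with each other. Vector, selection and culture cannot be told apart in this contrast. Of the 5 genes, 2 were called, both higher, where 14.8% of all genes tested were called higher and 25.9% in either direction, with 2544 of the 23063 called lower. IGLL1 rose by 0.97 ± 0.0537 on the log2 scale (adjusted p = 2.8e-12, edgeR; higher in both libraries), and this call held under every alternative tried (0.81 to 1.02). RAG1 rose by 0.30 ± 0.0908 (adjusted p = 0.0159). The RAG1 call was lost with scaling by library totals (0.14, adjusted p = 0.287) and on leaving out any one of the 4 libraries (adjusted p from 0.0613 to 0.0956). No call was made for DNTT (-0.01 ± 0.0604, adjusted p = 0.966), for RAG2 (-0.09 ± 0.111, adjusted p = 0.601) or for PTCRA (-0.13 ± 0.286, adjusted p = 0.805). The scrambled libraries of this test also stand in the contrasts that chose the members.

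Per kilobase of exon, DNTT and IGLL1 stood far above the other 3 genes in all Jurkat groups. In wild-type cells DNTT was at 113 ± 1.24 CPM per kb (SD, n = 2), IGLL1 at 78.6 ± 3.46, RAG2 at 3.08 ± 0.195, RAG1 at 2.60 ± 0.0592 and PTCRA at 1.09 ± 0.0665. Neighbours in this order did not overlap. In scrambled cells IGLL1 led with 154 ± 3.64 CPM per kb, before DNTT (113 ± 1.28), RAG1 (3.21 ± 0.0627), RAG2 (2.89 ± 0.123) and PTCRA (0.998 ± 0.109). With shRNA-4057 the order was DNTT (21.5 ± 0.355), IGLL1 (8.16 ± 0.369), RAG2 (1.38 ± 0.105), RAG1 (0.441 ± 0.00372) and PTCRA (0.231 ± 0.0338). With shRNA-4058 it was DNTT (54.3 ± 0.0515), IGLL1 (19.9 ± 0.510), RAG2 (2.59 ± 0.0860), RAG1 (1.55 ± 0.0247) and PTCRA (0.718 ± 0.121). The order with each hairpin was that of wild-type cells, and in scrambled cells the pair DNTT and IGLL1 and the pair RAG1 and RAG2 were exchanged. Neighbours in these orders did not overlap either. Exon lengths were those of GENCODE release 44, and the annotation used for the counting was not given. The order of RAG1 and RAG2, which lay close in wild-type and scrambled cells, depends on these lengths.

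Over the 8 Jurkat libraries, the profiles of RAG1 and DNTT were closest to each other, with a root mean square difference of 0.205 in log2 CPM centred on each gene's mean. RAG2 and IGLL1 were furthest apart, at 1.29. By the same measure, the 3 most similar of 13720 other genes were found for each member. For RAG1 they were ASS1 (0.0726), KIT (0.210) and ENSG00000268555 (0.216), for RAG2 PIANP (0.0672), ACSL3 (0.0765) and HMGCS1 (0.0787), and for DNTT SESN3 (0.0965), MYO7B (0.120) and C9 (0.145). PTCRA was most like SCN3A (0.213), MYO7B (0.243) and ALDH1B1 (0.248). IGLL1 was most like CEBPE (0.188), TFAP2A (0.222) and CHI3L2 (0.242). The libraries share group and scaling, so these distances describe the 4 Jurkat groups and no more.

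In HSB-2, IGLL1 was the 1 member of the 5 expressed far above the detection limit. Over the 8 HSB-2 libraries IGLL1 had 20094 reads, RAG1 101, DNTT 46, RAG2 4 and PTCRA 1. In the 8 Jurkat libraries the same genes had 46387, 13017, 122277, 7399 and 745 reads. A floor of 3 reads, the most that a count of 0 allows, corresponded to 0.0132 to 0.0444 CPM in HSB-2, for counting error only.

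IGLL1 in HSB-2 was at 9.57 and 8.62 CPM in wild-type cells and at 17.6 and 18.8 CPM in scrambled cells. It was at 18.6 and 18.3 CPM with shRNA-4057 and at 24.9 and 26.9 CPM with shRNA-4058. Scrambled and shRNA-4057 libraries overlapped, wild-type libraries lay below and shRNA-4058 libraries above them. Scrambled against wild-type, IGLL1 rose by 0.99 ± 0.0603 on the log2 scale (adjusted p = 4.9e-12, edgeR), where 16.1% of all genes tested were called higher and 17.9% lower. The difference of this effect between the lines, HSB-2 minus Jurkat, was 0.02 ± 0.0800 (adjusted p = 0.93). With shRNA-4057 against scrambled the log2 fold change was 0.02 ± 0.0588 (adjusted p = 0.847), in a contrast with 21.9% of genes called higher and 21.7% lower. With shRNA-4058 IGLL1 rose by 0.50 ± 0.0572 (adjusted p = 7.7e-08; higher in both libraries), where 26.6% were called higher and 26.2% lower. Between the hairpins, shRNA-4057 minus shRNA-4058, it was -0.48 ± 0.0593 (adjusted p = 1.5e-06), and 24.8% of genes were called either way. The calls held under the 11 alternatives applied to them, which left out wild-type control and pooled hairpins. In HSB-2 the hairpin libraries lay above both wild-type libraries, and in Jurkat below them.

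RAG1 had reads in every HSB-2 library, from 3 to 25, and the second shRNA-4058 library stood at the floor of 3 reads. The counts were 21 and 8 in wild-type, 25 and 7 in scrambled, 7 and 6 in shRNA-4057 and 24 and 3 in shRNA-4058 libraries. In 3 of the 4 groups the larger count belonged to the deeper library. Scaled, the levels lay between 0.0398 and 0.134 CPM. Each hairpin group overlapped the scrambled group, the wild-type libraries (0.0921 and 0.0841) lay above both shRNA-4057 libraries (0.0817 and 0.0579), and no contrast was called (log2 fold change -0.36 ± 0.511 with shRNA-4057, adjusted p = 0.626, and 0.14 ± 0.418 with shRNA-4058, adjusted p = 0.810, both against scrambled). Scrambled against wild-type it was -0.02 ± 0.409 (adjusted p = 0.990), and between the hairpins -0.50 ± 0.524 (adjusted p = 0.550). Leaving out 1 library at a time moved the values against scrambled from -0.95 to 0.77 with shRNA-4057 and from -0.98 to 1.27 with shRNA-4058, with a lowest adjusted p of 0.0532. The errors of RAG1 in HSB-2 were over 4 times those of the same contrasts in Jurkat, so that small differences were not detectable at this depth.

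DNTT had 34 and 1 reads in the HSB-2 wild-type libraries, 4 and 7 in the scrambled libraries and 0 in all 4 hairpin libraries. The first wild-type library held 34 of the 46 reads. Since 5 of these 8 libraries had 3 reads or fewer, the values are given as counts and no fitted call is used. RAG2 had 4 reads in 1 scrambled library and 0 in the other 7 HSB-2 libraries, and IFTAP had its reads in the same scrambled library. PTCRA had 1 read in 1 scrambled library and 0 in the other 7.

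**Figure D4:**
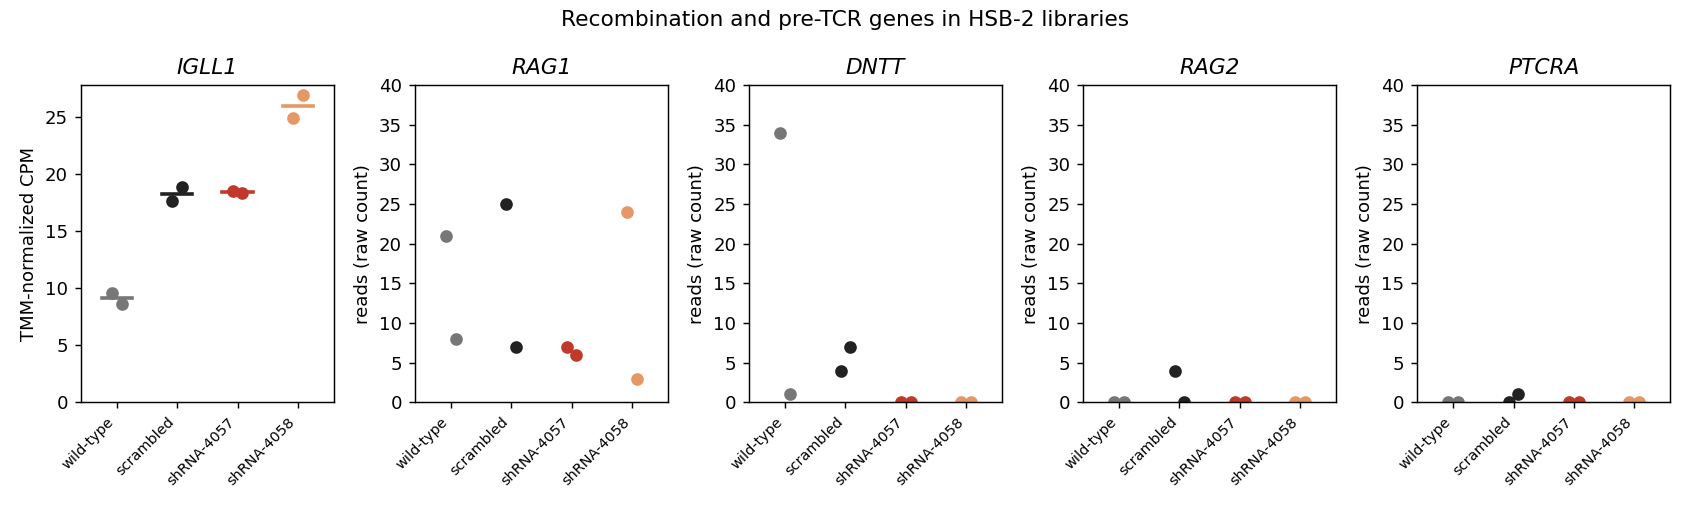
The 5 genes in the 8 HSB-2 libraries: IGLL1 in TMM-normalized CPM (bars are means of 2) and the other 4 genes as raw read counts, which are not scaled for library depth. IGLL1 is lowest in wild-type (9.57 and 8.62) and highest in shRNA-4058 libraries (24.9 and 26.9), and no other gene exceeds 34 reads.

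The enzymes that hold and seal the cut ends, from the Ku proteins and DNA-PK to DNA ligase IV, did not move together. Of 19 genes of the recombination machinery other than RAG1, RAG2 and DNTT, 6 were called higher and 8 lower in Jurkat with shRNA-4057, and 7 and 7 with shRNA-4058. Their median log2 fold change was -0.01 and 0.03, beside 0.00 and -0.01 over all genes. Of all genes, 22.7% were called higher and 27.3% lower in the former contrast, and 19.7% and 26.7% in the latter. With scaling by library totals, 12 and 13 of the machinery genes were called higher instead, and with wild-type cells as the control 3 with shRNA-4057. In HSB-2, 5 were called higher and 7 lower with shRNA-4057, and 4 and 9 with shRNA-4058 (medians -0.07 and -0.16, beside -0.02 and -0.01 over all genes, of which 21.9% and 21.7%, and 26.6% and 26.2%, were called higher and lower). With library totals 2 in place of 4 were higher with shRNA-4058, and against wild-type cells 3 in place of 5 with shRNA-4057. Scrambled against wild-type, 4 were called higher and 6 lower in Jurkat, beside 14.8% of all genes higher and 2544 of 23063 lower. In HSB-2 it was 4 and 5, beside 16.1% and 17.9% of all genes. With library totals, 2 of the machinery genes were called higher in Jurkat and 7 in HSB-2. In HSB-2 it was 1 without the first wild-type or the first scrambled library and 2 without the second wild-type library.

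The listed genes that were called in the same direction by both Jurkat hairpins, at 0.5 or more on the log2 scale, were 3. POLM, a polymerase of the same family as DNTT, fell by 0.84 ± 0.0534 with shRNA-4057 and by 0.62 ± 0.0529 with shRNA-4058 (adjusted p = 4.5e-12 and 1.0e-09), from 79.6 CPM in scrambled cells to 44.5 and 51.8 CPM, where wild-type cells had 65.6 CPM. H2AX, the histone marked at DNA breaks, fell by 0.63 ± 0.0560 and 0.67 ± 0.0560 (adjusted p = 1.5e-09 and 6.4e-10), but its means of 262 and 254 CPM with the hairpins were near the 247 CPM of wild-type cells, and scrambled cells stood at 406 CPM. Against wild-type cells H2AX was called with neither hairpin and the values lay above 0 (0.083 and 0.041). NHEJ1, a ligation factor, rose by 1.83 ± 0.506 and 1.71 ± 0.506 (adjusted p = 0.00413 and 0.00760) at very low levels, from 0.0914 CPM in scrambled to 0.326 and 0.301 CPM, and wild-type cells had 0.183 CPM. The NHEJ1 calls were lost against wild-type cells (0.81 and 0.68) and without the second scrambled library (1.47 and 1.36), and that of shRNA-4058 also without its second library (1.27).

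The chains and kinases through which a T-cell receptor signals were called in both directions in Jurkat and, against scrambled, in 1 direction in HSB-2. Of 13 receptor partners tested, 5 were called higher and 8 lower in Jurkat with shRNA-4057, and 3 and 8 with shRNA-4058 (medians -0.28 and -0.41, beside 0.00 and -0.01 over all genes, of which 22.7% and 19.7% were called higher and 27.3% and 26.7% lower). With scaling by library totals, 6 were called higher with each hairpin, and with shRNA-4058 it was 5 without the second scrambled library. In HSB-2, 11 were called higher and 0 lower with shRNA-4057, and 12 and 0 with shRNA-4058 (medians 0.31 and 0.59, beside -0.02 and -0.01 over all genes, of which 21.9% and 26.6% were called higher), while 0 were higher and 9 lower in scrambled against wild-type cells. The calls with the HSB-2 hairpins include SYK, which had 0 reads in both scrambled libraries. It had 3 and 8 reads with shRNA-4057 and 1 and 4 with shRNA-4058, so its calls rest on very few reads. With wild-type cells as the control in HSB-2, 5 were higher and 1 lower with shRNA-4057, and 7 and 2 with shRNA-4058. In Jurkat, 5 were higher and 4 lower in scrambled against wild-type cells, with 1 higher under library totals and 3 without the first wild-type or the second scrambled library. Of all genes, 14.8% were higher and 2544 of 23063 lower in Jurkat scrambled against wild-type cells, and 16.1% and 17.9% in HSB-2. With the HSB-2 hairpins against scrambled, 21.7% (shRNA-4057) and 26.2% (shRNA-4058) of all genes were called lower.

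CD3D, a signalling chain of the receptor, was at 412 ± 10.6 CPM (SD, n = 2) in scrambled Jurkat cells and fell by 0.76 ± 0.0366 with shRNA-4057 and by 0.65 ± 0.0365 with shRNA-4058 (adjusted p = 2.6e-14 and 7.4e-13), while wild-type cells had 306 CPM, so that against them the fall was -0.33 and -0.22. TRBC2, the constant part of the receptor β chain, fell by 1.03 ± 0.0366 and 0.60 ± 0.0362 (adjusted p = 9.6e-17 and 2.5e-12), and its near-identical copy TRBC1 was not analysed here, so its counts are uncertain. Wild-type cells had 446 CPM of TRBC2, scrambled cells 491, and the hairpin cells 240 and 324 CPM. SYK, a kinase used by the pre-T-cell receptor, fell by 0.61 ± 0.0630 and 0.59 ± 0.0628 (adjusted p = 2.8e-08 and 5.9e-08), from 159 CPM in scrambled cells to 104 and 106 CPM, where wild-type cells had 140 CPM. TRGC1 and TRGC2, the constant segments of the γ chain and near-identical to each other, rose with both hairpins. For TRGC2 the log2 fold change was 2.21 ± 0.0837 and 2.11 ± 0.0835 (adjusted p = 3.3e-16 and 1.5e-15), and for TRGC1 1.81 ± 0.174 and 1.62 ± 0.176 (adjusted p = 6.1e-09 and 5.3e-08). TRGC2 was at 2.35 CPM in scrambled cells and at 7.61 CPM in wild-type cells, against 10.9 and 10.2 CPM with the hairpins. Against wild-type cells TRGC2 was still called higher (0.51 and 0.41) and TRGC1 was not called (0.26 and 0.077).

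**Figure D5:**
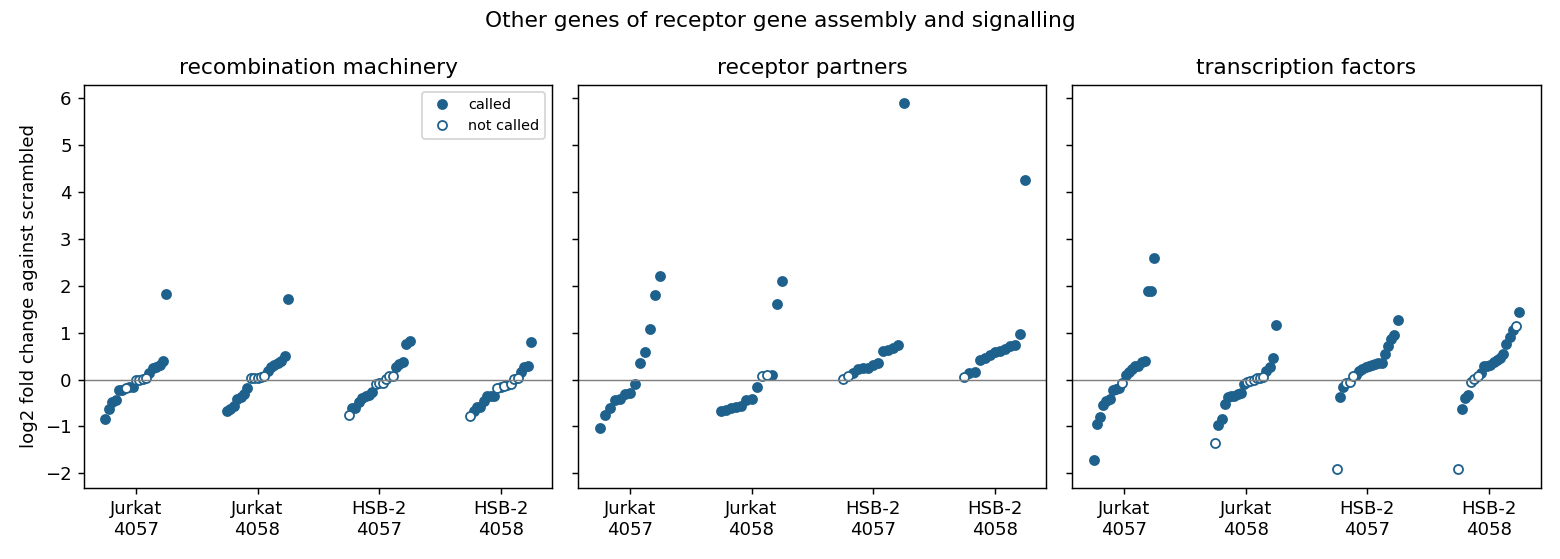
Log2 fold change against scrambled of each tested gene of 3 lists, for both hairpins in both lines; filled points were called (adjusted p under 0.05, edgeR) and open points were not. Against scrambled, receptor partners are called in both directions in Jurkat and higher in HSB-2, where the highest point of each hairpin is SYK, fitted on 0 to 26 reads per library.

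Of 20 transcription factors that act at receptor loci or with TAL1 and the E proteins, 10 were called higher and 9 lower in Jurkat with shRNA-4057, and 4 and 9 with shRNA-4058 (medians 0.01 and -0.07, beside 0.00 and -0.01 over all genes, of which 22.7% and 19.7% were called higher and 27.3% and 26.7% lower). With scaling by library totals, 12 and 11 were called higher, with the GC content and length offset 8 with shRNA-4058, and against wild-type cells 5 and 2. In HSB-2, 14 were higher and 2 lower with shRNA-4057, and 12 and 3 with shRNA-4058 (medians 0.28 and 0.30, beside -0.02 and -0.01 over all genes). Of all genes, 21.9% and 26.6% were called higher in these contrasts and 21.7% and 26.2% lower. Scrambled against wild-type, 5 were higher and 11 lower in Jurkat (1 higher with library totals), beside 14.8% of all genes higher and 2544 of 23063 lower. In HSB-2 it was 6 and 8, beside 16.1% and 17.9% of all genes. In Jurkat, FOXO1, a known activator of the RAG genes in B-lineage cells, rose by 1.89 ± 0.0685 with shRNA-4057 and 1.16 ± 0.0695 with shRNA-4058 (adjusted p = 1.4e-16 and 2.3e-12). It was at 6.80 CPM in scrambled and 12.5 CPM in wild-type cells, against 25.3 and 15.2 CPM with the hairpins. Its calls held under the alternatives, wild-type control among them, with values down to 1.01 and 0.27. LMO1, a partner of TAL1, fell by 1.72 ± 0.131 and 0.97 ± 0.124 (adjusted p = 1.0e-10 and 7.0e-07), from 10.7 CPM in scrambled cells, where wild-type cells had 6.49 CPM and against which it was not called with shRNA-4058 (-0.25). MYB fell by 0.95 ± 0.0297 and 0.53 ± 0.0295 (adjusted p = 8.7e-18 and 5.8e-13), from 529 CPM in scrambled and 451 CPM in wild-type cells. GFI1, a repressor in early T cells, fell by 0.80 ± 0.0455 and 0.84 ± 0.0453 (adjusted p = 6.1e-13 and 3.2e-13), from 53.1 CPM in scrambled and 45.8 CPM in wild-type cells.

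Since IGLL1 is a B-lineage gene, the other genes of its receptor were examined. Of 10 B-lineage genes tested, 2 were called higher and 5 lower in Jurkat with shRNA-4057, 0 and 3 with shRNA-4058, and 4 and 0 with either hairpin in HSB-2 (medians -1.19, -0.94, 0.94 and 0.56). Of all genes, 22.7% were called higher and 27.3% lower in Jurkat with shRNA-4057, and 19.7% and 26.7% with shRNA-4058. The shares in HSB-2 were 21.9% and 21.7% with shRNA-4057, and 26.6% and 26.2% with shRNA-4058. The medians over all genes were 0.00, -0.01, -0.02 and -0.01 in these 4 contrasts. Scrambled against wild-type, 1 was higher and 0 lower in Jurkat (14.8% of all genes higher and 2544 of 23063 lower). In HSB-2 it was 0 and 3 (16.1% and 17.9% of all genes). CD79A, a signalling chain of the B-cell receptor, was at 35.5 ± 0.465 CPM (SD, n = 2) in wild-type Jurkat cells, at 62.7 ± 2.23 CPM in scrambled cells, and at 21.5 ± 0.0283 and 22.4 ± 0.403 CPM with shRNA-4057 and shRNA-4058. The log2 fold changes against scrambled were -1.54 ± 0.0666 and -1.49 ± 0.0661 (adjusted p = 3.6e-15 and 1.1e-14). VPREB1, the partner of IGLL1 in the surrogate light chain, had 25 and 31 reads in the scrambled Jurkat libraries, 14 and 11 in wild-type, 10 and 10 with shRNA-4057 and 13 and 4 with shRNA-4058. It was called lower with both hairpins against scrambled (-1.69 ± 0.686, adjusted p = 0.0450, and -2.11 ± 0.700, adjusted p = 0.0163). These calls were not stable. That of shRNA-4057 was lost in 9 of 13 alternatives, omission of any of the 4 libraries among them, and that of shRNA-4058 without the second scrambled library (-1.92) or its own second library (-1.54). Against wild-type cells VPREB1 was called with neither (-0.39 and -0.80).

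Scaling mattered for such counts. With library totals in place of TMM, the median log2 fold change of all genes was 0.26 with either hairpin in Jurkat, -0.16 for scrambled against wild-type Jurkat cells, and -0.13 and -0.17 with shRNA-4057 and shRNA-4058 in HSB-2. The share of calls that were higher moved from 45.4% to 75.9% and from 42.5% to 78.0% in the Jurkat hairpin contrasts, and from 57.3% to 18.0% for scrambled against wild-type. In HSB-2 it moved from 50.3% to 33.6% with shRNA-4057, from 50.3% to 33.2% with shRNA-4058, from 47.4% to 57.4% for scrambled against wild-type and from 42.3% to 55.3% between the hairpins. Against the shift of 0.26, IGLL1, RAG1, DNTT and PTCRA were still below scrambled with both hairpins on either scale.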

How the data were processed

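RNA-seq of total RNA (ribosomal RNA depleted, stranded kit) was available for 16 libraries, 2 in each of 8 groups taken from the sample labels. The deposited values were raw read counts per gene, made by the authors with an in-house mapping pipeline (BWA, GRCh37-lite) and HT-seq (HTSeq 0.6.1p1 in the submitters' processing notes, which also name STAR, CASAVA and hg19). The strand setting and annotation release were not given in the sources used here. The table of 57820 genes held Ensembl identifiers. Symbols, loci and exon lengths came from GENCODE release 44 on GRCh37, which held 96.1% of the identifiers.

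From these counts, levels and tests were computed with edgeR 4.0.16 in R 4.3.3: filterByExpr on the 8 groups (23063 genes kept), TMM (factors 0.882 to 1.15), the quasi-likelihood test (glmQLFit, glmQLFTest) in 1 fit of all libraries, and Benjamini-Hochberg adjustment over all genes tested. The SE of a log2 fold change was its size divided by the square root of F. The biological coefficient of variation was 4.20%. The procedure was also run on simulated counts. There a small set of genes was changed in the Jurkat shRNA-4057 libraries, and all genes had the same dispersion. That setting does not test the scaling or the spread of single genes in these data. Fold changes of low genes depend on the prior count. Members and gene lists were chosen with earlier results of these data known. Named genes were the 5 members, USP7, genes that overlap or neighbour the members, the 3 genes most like each member, and listed genes called the same way by both Jurkat hairpins at 0.5 or more on the log2 scale. Total counts of 76.6 to 235 M (mega) per library set the precision. Floors describe counting error alone, as reads carried no molecular identifiers and copies of 1 molecule can be counted repeatedly. In every group the 2 libraries differed by more than sampling noise allows. Alternatives were DESeq2 1.42.0 and its size factors, library totals, no filter, a replicate block, an offset for GC content and length, single-line fits, omission of each library, wild-type cells as the control and pooled hairpins. Wild-type control and pooled hairpins were not applied to the tests on members.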

Additional observations from a re-analysis of the deposited data

Results flagged for a closer look

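IGLL1 with shRNA-4058 was lower than scrambled in both Jurkat libraries (log2 fold change -2.95) and higher in both HSB-2 libraries (0.50). The lines moved in opposite directions, and this difference was not tested, since the gene was chosen on the Jurkat contrast.

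For the listed genes named above, the hairpin effect was compared between the lines by an interaction term, HSB-2 minus Jurkat, in edgeR, where no library had 3 reads or fewer. The genes were named for their Jurkat effect, so the Jurkat side of each difference is not independent of the choice. The shift between the controls enters each difference. From wild-type to scrambled cells, H2AX went from 247 to 406 CPM in Jurkat and from 358 to 287 CPM in HSB-2. CD3D went from 306 to 412 and from 181 to 133 CPM. TRBC2, CD79A and FOXO1 also shifted in opposite directions, and MYB, GFI1, POLM and TRGC1 in the same one. TRGC2 and NHEJ1 overlapped between the HSB-2 controls. These differences were not tested with wild-type cells as the control. With shRNA-4057 and shRNA-4058, in that order, the log2 difference was 1.50 and 1.62 for CD3D, 1.34 and 1.19 for TRBC2, 1.39 and 1.48 for H2AX, and 0.91 and 0.77 for POLM. It was 2.70 and 2.37 for CD79A, 1.13 and 1.26 for GFI1, and 0.80 and 0.21 for MYB. It was -1.70 and -0.87 for FOXO1, -2.14 and -1.65 for TRGC2, -1.57 and -0.89 for TRGC1, and -2.59 and -2.48 for NHEJ1, all with an adjusted p under the threshold of 0.05.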

How the results depend on the processing

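Of the 13 tests on members, the RAG1 difference between scrambled and wild-type Jurkat cells was the exception that lost its call: it was 0.14 (adjusted p = 0.287) with library totals, and 0.28 to 0.32 when a library was left out. The other member tests kept their side of the threshold under the 11 alternatives applied to them. Wild-type control and pooled hairpins were not applied to the member tests. For the 19 other genes named with a Jurkat test, 13 alternatives, those with wild-type control and pooled hairpins included, were applied after seeing the data. Of their 38 tests, 21 kept call and direction and 17 did not. The sign changed for TRAF6 with library totals (0.21 with shRNA-4057 and 0.14 with shRNA-4058) and for H2AX against wild-type cells (0.083 and 0.041), and the losses are given with each gene above. Alternatives were not run for the differences between the lines. Fits that left out 1 library assumed that the lone remaining library varies like the other groups. The replicate numbers did not pair the libraries (correlations of replicate deviations from -0.028 to 0.037), and with the replicate block 11439 genes in place of 11527 were called in Jurkat with shRNA-4057, no call on a member changed (RAG1 scrambled against wild-type 0.30, adjusted p = 0.0184) and that on VPREB1 with shRNA-4057 was lost (adjusted p = 0.0545).

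The member values against scrambled in Jurkat moved by more than the replicate spread as follows. With library totals they were -2.59 (RAG1), -0.79 (RAG2), -2.11 (DNTT), -1.83 (PTCRA) and -3.97 (IGLL1) with shRNA-4057, and -0.77 (RAG1), 0.13 (RAG2, a changed sign), -0.77 (DNTT) and -2.67 (IGLL1) with shRNA-4058. With the GC content and length offset, IGLL1 was -4.43 with shRNA-4057, and RAG1 -1.10, RAG2 -0.28 and DNTT -1.09 with shRNA-4058. DNTT with shRNA-4058 was -1.02 in the Jurkat libraries alone. Leaving out libraries in turn gave -0.20 to -0.073 for RAG2, -1.06 to -1.02 for DNTT and -2.98 to -2.89 for IGLL1 with shRNA-4058. With wild-type cells as the control, shRNA-4057 gave -2.56 (RAG1) and -3.27 (IGLL1), and shRNA-4058 -0.75 (RAG1), -0.25 (RAG2) and -1.98 (IGLL1). With the hairpins pooled, the values were -1.66 (RAG1), -0.51 (RAG2), -1.54 (DNTT), -1.04 (PTCRA) and -3.43 (IGLL1).

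Of the counts of called genes, 7 moved by over 1.5 times, and so did 26 of the counts called higher, which stand with the lists above or follow here. With the hairpins pooled, where their difference is part of the error, 7 genes of the recombination machinery were called in Jurkat in place of 14 with either hairpin, and, against shRNA-4057, 8 receptor partners in place of 13 and 9 transcription factors in place of 19. Pooled, 2 receptor partners and 3 transcription factors were higher in Jurkat in place of 5 and 10 with shRNA-4057, 4 genes of the machinery in place of 7 with shRNA-4058, and 3 in HSB-2 in place of 5 with shRNA-4057. With wild-type control, 6 receptor partners were called with shRNA-4057 in HSB-2 in place of 11. Leaving out libraries gave 5 to 8 genes of the machinery in place of 9 in HSB-2 scrambled against wild-type cells, with 5 without the second wild-type library, and 3713 to 4478 genes in place of 5716 between the HSB-2 hairpins, with 3713 without the second shRNA-4057 library. Without the second HSB-2 shRNA-4058 library, 61.3% in place of 50.3% of calls were higher with shRNA-4058 and 25.1% in place of 42.3% between the hairpins. The GC content and length offset made 60.3% of calls higher in HSB-2 scrambled against wild-type cells and 59.2% between the HSB-2 hairpins. Except where a sentence above shows it, the cause was not tested. Depth limits DNTT, RAG2 and PTCRA in HSB-2 to counts.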
